A study of Drosophila melanogaster with 6 samples.

Results

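The 32 genes described here encode RNA-binding proteins, synaptic vesicle proteins, transmitter enzymes and transporters, ion channels and surface proteins of differentiated neurons. They were taken by symbol from a list of 32 names, all found among the 15135 features of the deposited expression table. By role, 2 are neuronal RNA-binding proteins, 14 act in vesicle release, 5 in transmitter synthesis, transport or breakdown, 9 are ion channels or a pump subunit, and 2 (Appl and futsch) are a surface protein and a microtubule protein that belong to none of the other roles.

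Polyadenylated RNA of whole Drosophila melanogaster embryos was sequenced at about stage 14, from wild type (3 libraries) and from spo mutants (3 libraries). spo, or spook, codes for a cytochrome P450 needed to make the steroid hormone ecdysone, and the study sought genes downstream of ecdysone signaling. The labels give no allele, no sex and no way of picking mutant embryos, and nothing says that the libraries came from separate crosses, so p-values measure only the spread between these libraries. In whole embryos, fewer cells of a type and less RNA per cell cannot be told apart.

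Neurons of the fly embryo arise from neuroblasts, leave the cell cycle and extend axons before they build synapses. The RNA-binding proteins ELAV and FNE set neuronal splicing and 3′ end choice early in this course. Vesicle release proteins, transmitter transporters and channels follow as neurons become electrically active late in embryogenesis. At the nerve terminal, an action potential carried by sodium and potassium channels opens the calcium channel Cacophony. Calcium binds Synaptotagmin 1, and a complex of Syntaxin, SNAP25 and neuronal Synaptobrevin fuses the vesicle with the membrane.

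Library totals, rebuilt from the expression values, ran from 50365857 to 73932157 reads. The spo transcript stood at 0.944, 0.726 and 0.696 TPM (reads per gene length, scaled to the same sum in each library) in wild type and at 0.610, 0.470 and 0.306 TPM in the mutants, on 24 to 59 reads per library. Markers of other cell types and of maternal RNA were read in the same libraries. Of 8 transcripts that mothers load into eggs, 7 were higher in spo, and their summed level was 7.82 to 8.42 TPM in wild type and 145 to 185 TPM in spo. Of 10 neuroblast genes, 8 were higher and 2 lower, with sums of 819 to 841 and 911 to 915 TPM. Of 10 glial genes, 5 were higher and 3 lower, with sums of 787 to 807 and 841 to 858 TPM. Over all features of the filtered fit described below, 33.9% were higher and 27.9% lower, and the glial counts lie near that background. No neuroblast or glial marker was at 0. The part of these shifts, or of a difference in embryo age, in the neuronal results was not tested.

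Most neuronal genes of the list were lower in the mutants. In a limma fit of all features on log2(TPM + 1), 20 of the 32 (62.5%) were lower and 2 (6.25%) higher at an adjusted p below 0.05. Over all 15135 features of that fit, 43.3% were called, 19.9% lower and 23.4% higher. The median difference was -0.28 over the 32 genes and 0.01 over all features. In 20 of the 32 genes every mutant library lay below every wild-type library, against 24.3% of all features, and in 4 every mutant library lay above, against 28.7%. Leaving out 1 library gave 17 to 21 lower and 1 or 2 higher genes: Sh, Syt4 and futsch dropped out in some of these refits, and Rdl and Syn joined when spo replicate 2 was left out. The authors' deposited table calls 20 of the 32 lower and 3 higher at a false discovery rate below 0.05, and 22 of these were called with the same sign here (in the filtered fit described next, or for the genes under its filter in the fit of all features).

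In the fit restricted to features reaching 1 TPM in 3 or more libraries, which gives the adjusted p-values below unless stated, 27 of the 32 genes entered. There 18 were lower and 3 higher, against 27.9% and 33.9%, together 61.7%, of the 10019 features tested. Syt1, VGlut, cac and Sh reached 1 TPM in the wild-type libraries alone, and Shab in these and in 2 mutant libraries. None of these 5 would have entered on its mutant libraries by themselves. Rim, Rdl, para, eag and slo stayed under this filter and are given from the fit of all features. Of the 18 lower genes, 11 fell by at least 0.5 on the log2(TPM + 1) scale, which 7.90% of the tested features did. Syt1, VGlut and cac are among these 11 and entered through the wild-type libraries alone. The rest of the 11 (fne, nSyb, cpx, Rab3, VAChT, Vmat, Shal and nrv3) reached 1 TPM in every library. None of the 27 genes rose by that much, against 8.70% of the tested features.

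**Figure D1:**
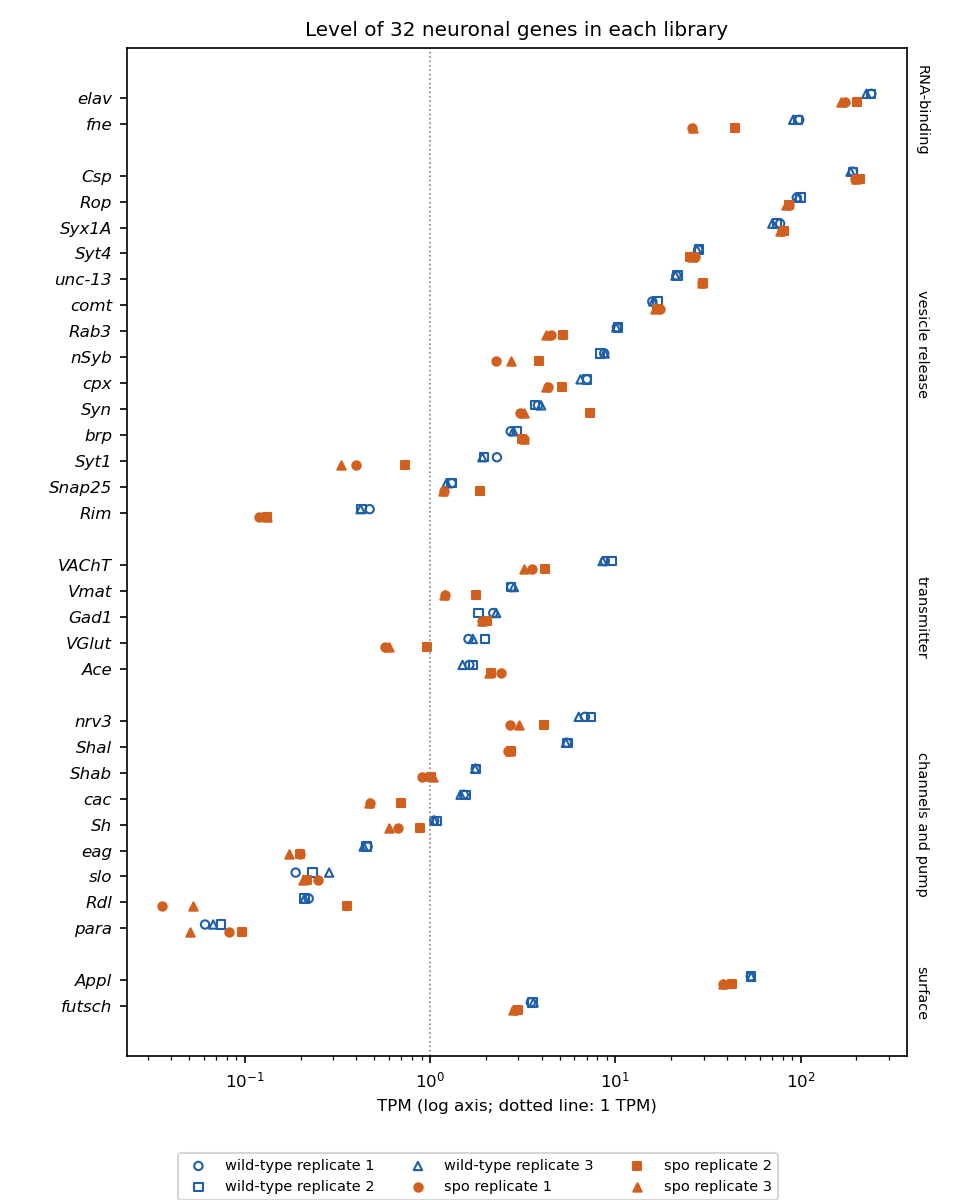
Level of each of the 32 genes in every library, in TPM on a log axis, grouped by role. Blue open symbols are wild-type replicates, orange filled symbols spo replicates, and the dotted line marks 1 TPM. Levels span from 0.0358 TPM for Rdl in spo replicate 1 to 241 TPM for elav in wild type, and the mutant symbols of fne, nSyb, Syt1, Rim, VAChT and cac lie far left of the wild-type ones.

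Both neuronal RNA-binding genes fell, and fne fell further than elav in proportion. elav, the standard marker of differentiated neurons (X, 509235 to 523226), stood at 241, 239.8 and 226 TPM in wild type and at 174, 202 and 164.5 TPM in spo, in the order of the replicate numbers. All mutant libraries were below all wild-type libraries. Mean levels were 236 ± 8.10 and 180.2 ± 19.5 TPM (SD, n = 3), a log2 difference of -0.39 (SE 0.07, limma adjusted p = 0.00252). In the annotation used here, 27.9% of the elav exon bases are shared with the non-coding RNA enrr on the same strand.

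fne (found in neurons; X, 12917477 to 12950417) encodes an ELAV relative that can take over part of its splicing work. It stood at 98.4, 96.5 and 91.2 TPM in wild type and at 26.1, 44.2 and 26.1 TPM in spo. The groups did not overlap, and spo replicate 2 lay above the other mutant libraries. The means were 95.3 ± 3.74 and 32.1 ± 10.5 TPM, a 2.97-fold lower level and a log2 difference of -1.58 (SE 0.19, adjusted p = 0.000300). On the log2(TPM + 1) scale this was the largest difference among the 32 genes, but with a pseudocount of 0.1 that of Syt1 was larger (-1.93 against -1.61). Without spo replicate 2 the fold was 3.65. Within a library, fne amounted to 40.9%, 40.2% and 40.3% of the elav level in wild type and to 15%, 21.9% and 15.9% in spo.

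**Figure D2:**
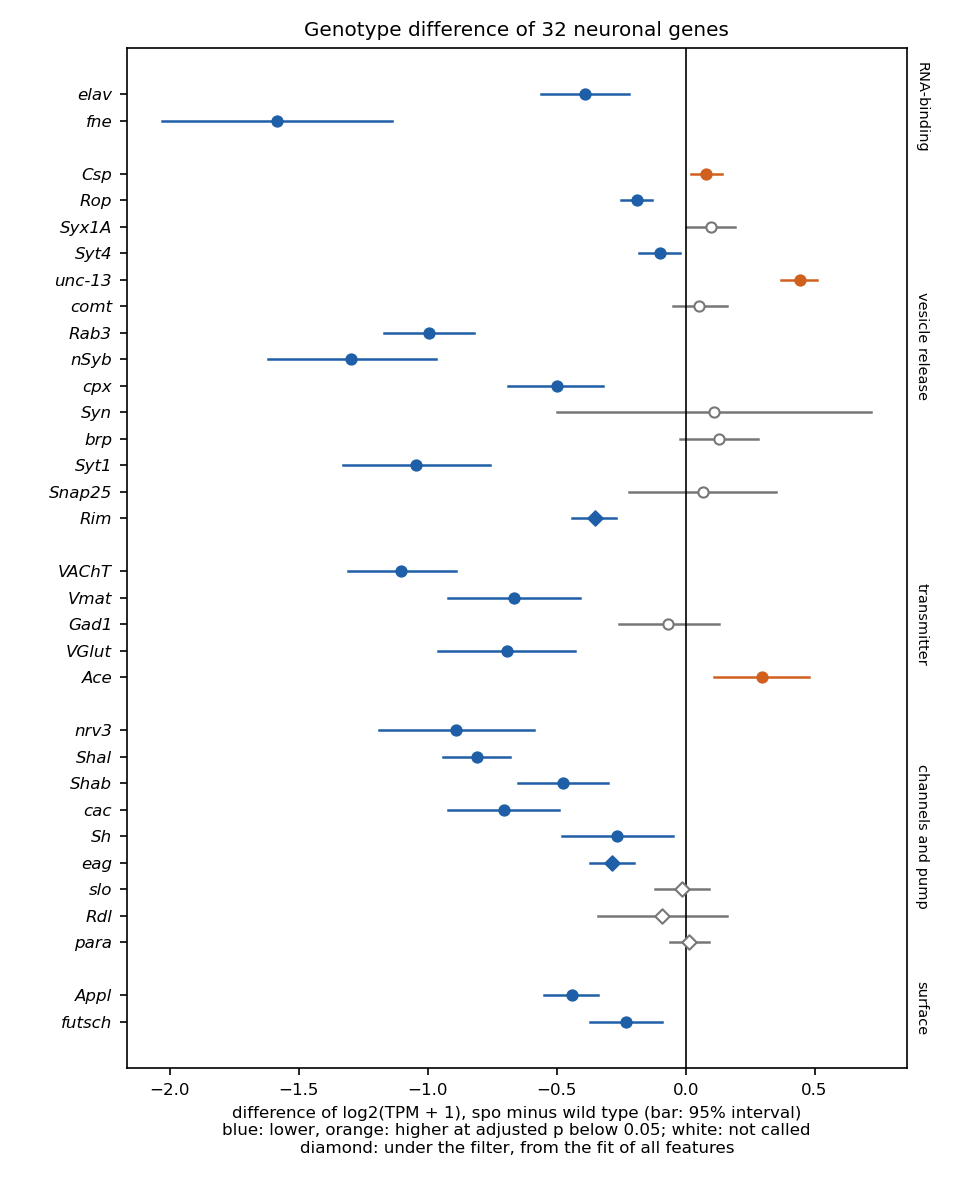
Difference of log2(TPM + 1), spo minus wild type, for the 32 genes with 95% intervals from limma. Blue marks genes called lower, orange genes called higher, white genes not called, and diamonds the 5 genes under the filter. The role groups of RNA-binding, channel and surface genes hold no gene called higher, while vesicle release genes lie on both sides of 0.

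The 14 vesicle release genes divided. In the filtered fit 6 of 13 fell, 2 rose and 5 did not pass, and Rim fell in the fit of all features. Of the 3 fusion proteins, only the vesicle one was lower. nSyb, neuronal synaptobrevin (3L, 1630348 to 1637752), stood at 8.71, 8.26 and 8.76 TPM in wild type and at 2.26, 3.86 and 2.74 TPM in spo. No mutant library reached the wild-type range, and the means were 2.90-fold apart, at 8.58 ± 0.27 and 2.96 ± 0.82 TPM (log2 difference -1.30, SE 0.14, adjusted p = 0.000180).

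The partners of nSyb in the fusion complex did not pass. Syx1A, the membrane syntaxin, which also serves secretion outside neurons, stood at 77.5, 74.4 and 70.3 TPM in wild type and at 78.9, 81.8 and 77.3 TPM in spo. The groups overlapped, and the log2 difference was 0.10 (95% interval 0.00 to 0.19, adjusted p = 0.0657). It passed as higher without wild-type replicate 1 (0.13, adjusted p = 0.0294). Syx1A shares 10.7% of its exon bases with the cap-binding gene 4EHP, which averaged 40.6 and 41.6 TPM. Snap25 was low, at 1.31, 1.31 and 1.23 TPM in wild type and at 1.19, 1.85 and 1.18 TPM in spo (log2 difference 0.07, 95% interval -0.22 to 0.35, adjusted p = 0.653). Its direction turned without spo replicate 2 (-0.06, adjusted p = 0.542).

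Calcium sensing and clamping genes were lower, apart from Syt4, whose difference was small. Syt1, the calcium sensor of fast release (2L, 2772327 to 2799979), stood at 2.29, 1.95 and 1.92 TPM in wild type and at 0.399, 0.734 and 0.332 TPM in spo, on 82 to 575 reads per library. The mutant mean was 4.2-fold lower (log2 difference -1.04, SE 0.12, adjusted p = 0.000268), the largest fold of the 32 genes. Without spo replicate 2 the fold was 5.62. cpx, the fusion clamp complexin, stood at 7.02, 7.03 and 6.49 TPM in wild type and at 4.31, 5.14 and 4.23 TPM in spo, a log2 difference of -0.50 (SE 0.08, limma adjusted p = 0.00119), with no overlap between groups. Syt4, a synaptotagmin that acts in retrograde signals from muscle, went from 27.9 ± 0.37 to 26.0 ± 0.83 TPM, a log2 difference of -0.10 (SE 0.03, limma adjusted p = 0.0373). The call of Syt4 was lost, at adjusted p of 0.0642 to 0.112, without any 1 of the wild-type libraries, spo replicate 2 or spo replicate 3.

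Genes of the active zone, the site where vesicles dock, went different ways. Rab3, the vesicle GTPase (2R, 10721335 to 10729203), stood at 10.2, 10.3 and 10.1 TPM in wild type and at 4.47, 5.23 and 4.2 TPM in spo. Its level was 2.20-fold lower, and the groups lay far apart relative to their spread (log2 difference -1.0, SE 0.07, adjusted p = 3.69e-05). Rim, the scaffold that binds Rab3 at the release site (3R, 17872748 to 17916578), was scarce, at 0.472, 0.427 and 0.422 TPM in wild type and 0.119, 0.132 and 0.131 TPM in spo. These values rest on 145 to 191 reads in wild type and 37 to 59 in spo, and the ratio of means was 3.45 (log2 difference -0.35 on the log2(TPM + 1) scale, adjusted p = 0.000343 in the fit of all features).

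unc-13, the priming factor of the same sites (4, 867824 to 912331), rose. It stood at 21.4, 21.6 and 21.1 TPM in wild type and at 29.3, 29.7 and 29.2 TPM in spo, a 1.38-fold higher level (log2 difference 0.44, SE 0.03, adjusted p = 2.28e-05). Its groups were separated by far more than their spread, and spo replicate 2 did not stand apart. Antisense RNAs and a pseudogene overlap its exons: CR43425 covers 15.6% of them, with mean levels of 1.42 (wild type) and 1.51 TPM (spo). Without a known strand setting, their reads may not be told apart. brp, the Bruchpilot scaffold, stood at 2.73, 2.96 and 2.81 TPM in wild type and at 3.2, 3.14 and 3.23 TPM in spo. Its groups did not overlap, but it did not pass (log2 difference 0.13, 95% interval -0.02 to 0.28, adjusted p = 0.109). In the authors' deposited table brp has a log2 fold change of 0.15 with a false discovery rate of 0.0159.

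Rop, Csp and comt differed little. Rop, the Syntaxin-binding Sec1 protein, went from 97.3 ± 2.36 to 85.3 ± 1.48 TPM, a log2 difference of -0.19 (SE 0.03, limma adjusted p = 0.000638). Csp, the cysteine string chaperone, went from 189.9 ± 3.38 to 201 ± 6.18 TPM, a log2 difference of 0.08 (SE 0.03, limma adjusted p = 0.0364). The Csp call was lost in the fit of all features (adjusted p = 0.0505), with median-of-ratios scaling (log2 difference 0.06, adjusted p = 0.102) and without any 1 wild-type library (0.0662 to 0.116). comt, an NSF ATPase that takes fused complexes apart, stood at 15.8, 16.9 and 16.03 TPM in wild type and at 17.4, 16.9 and 16.4 TPM in spo (log2 difference 0.05, 95% interval -0.05 to 0.16, adjusted p = 0.324). Its libraries overlapped.

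Syn (synapsin, which tethers vesicles) depended on 1 library. It stood at 3.82, 3.69 and 3.97 TPM in wild type and, in the order of the replicate numbers, at 3.07, 7.26 and 3.19 TPM in spo. Replicate 2 lay above every wild-type library, and the other mutant libraries below. The log2 difference was 0.11 (95% interval -0.50 to 0.72, adjusted p = 0.734), and without spo replicate 2 it was -0.22 (adjusted p = 0.0242). The matrix protein gene Timp shares 4.3% of the Syn exon bases on the opposite strand and stood at 1.77, 2.66 and 1.65 TPM in the same mutant libraries.

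All 3 vesicular transporters of the list fell, while Gad1 did not pass and Ace rose. VAChT, the vesicular acetylcholine transporter (3R, 18705501 to 18718916), stood at 8.78, 9.52 and 8.54 TPM in wild type and at 3.53, 4.19 and 3.21 TPM in spo, 2.46-fold lower (log2 difference -1.10, SE 0.09, adjusted p = 4.89e-05). Its groups did not overlap. VAChT is nested in the gene of choline acetyltransferase, ChAT (listed as Cha), with which it shares 606 exon bases. Cha stood at 2.46, 2.43 and 2.67 TPM in wild type and at 1.13, 1.32 and 0.901 TPM in spo (adjusted p = 0.000416). It would not have entered the filtered fit on its mutant libraries by themselves, and was also lower in the fit of all features (limma adjusted p = 0.000762). Reads of the bases shared by Cha and VAChT may not be told apart.

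VGlut, the vesicular glutamate transporter of motor neurons (2L, 2400295 to 2410662), stood at 1.61, 1.97 and 1.70 TPM in wild type and at 0.574, 0.966 and 0.601 TPM in spo. The ratio was 2.47 (log2 difference -0.69, SE 0.11, adjusted p = 0.00145), and 3.0 without spo replicate 2. Vmat, the vesicular monoamine transporter, stood at 2.74, 2.73 and 2.83 TPM in wild type and at 1.21, 1.77 and 1.19 TPM in spo (log2 difference -0.66, SE 0.11, adjusted p = 0.00130). CG13330, which shares 26.2% of the Vmat exon bases on the opposite strand, was below 0.2 TPM in every library. In all 3 transporters spo replicate 2 was the highest mutant library and still lay below the wild-type range.

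Gad1, the GABA-synthesizing enzyme, stood at 2.19, 1.82 and 2.27 TPM in wild type and at 1.90, 2.04 and 1.91 TPM in spo. These overlapped (log2 difference -0.07, 95% interval -0.26 to 0.13, adjusted p = 0.503). Ace, acetylcholinesterase, which ends cholinergic transmission, rose from 1.63, 1.70 and 1.5 TPM in wild type to 2.41, 2.13 and 2.07 TPM in spo (log2 difference 0.29, SE 0.08, adjusted p = 0.0137). Ace and unc-13 were the 2 genes called higher in both fits. The acetylcholine genes thus split, with the vesicular transporter and the synthesizing enzyme lower and the degrading enzyme higher in the same libraries.

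Of the 9 channel and pump genes, 5 were lower in the filtered fit and eag in the fit of all features, and 3 gave no call. Shal, a potassium channel of the cell body and dendrites (3L, 19566851 to 19584568), stood at 5.48, 5.51 and 5.41 TPM in wild type and at 2.65, 2.74 and 2.70 TPM in spo, 2.03-fold lower (log2 difference -0.81, SE 0.06, adjusted p = 2.59e-05). Its groups lay far apart relative to their spread, and spo replicate 2 did not stand apart. cac, the presynaptic calcium channel (X, 11931280 to 11985087), stood at 1.52, 1.55 and 1.46 TPM in wild type and at 0.475, 0.693 and 0.468 TPM in spo (ratio 2.77, log2 difference -0.70, SE 0.09, adjusted p = 0.000438). No cac value in a mutant library came near the wild-type range.

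Of the delayed and A-type potassium channels, Shab went from 1.76 ± 0.01 to 0.986 ± 0.067 TPM, a log2 difference of -0.48 (SE 0.07, limma adjusted p = 0.00106). Sh (Shaker) went from 1.06 ± 0.02 to 0.719 ± 0.144 TPM, a log2 difference of -0.27 (SE 0.09, limma adjusted p = 0.0365). The Sh call was lost, at adjusted p of 0.0819 to 0.112, without any 1 of the wild-type libraries, spo replicate 1 or spo replicate 3. eag, a slow potassium channel, stood at 0.460, 0.454 and 0.438 TPM in wild type and at 0.199, 0.199 and 0.173 TPM in spo, on 46 to 148 reads per library (ratio 2.37, adjusted p = 0.000866 in the fit of all features).

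The channels at the lowest levels gave no call. para, the main sodium channel gene, stood at 0.0610, 0.0747 and 0.0676 TPM in wild type and at 0.0819, 0.0972 and 0.0505 TPM in spo, on 25 to 42 reads per library (log2 difference 0.01, 95% interval -0.06 to 0.09, adjusted p = 0.805). slo, the calcium-activated potassium channel, stood at 0.188, 0.232 and 0.285 TPM in wild type and at 0.249, 0.215 and 0.206 TPM in spo (log2 difference -0.01, adjusted p = 0.843). Rdl, the GABA-gated chloride channel, stood at 0.221, 0.210 and 0.210 TPM in wild type and at 0.0358, 0.357 and 0.0529 TPM in spo. Its 85 reads in spo replicate 2 stand against 7 and 15 in the other mutant libraries. With all libraries it did not pass (log2 difference -0.09, adjusted p = 0.535), and without spo replicate 2 it was lower (-0.22, adjusted p = 0.00270).

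nrv3, a neuronal beta subunit of the sodium-potassium pump, stood at 6.86, 7.38 and 6.34 TPM in wild type and at 2.69, 4.14 and 3.01 TPM in spo (log2 difference -0.89, SE 0.13, adjusted p = 0.000728). Its groups did not overlap. Appl, the fly amyloid precursor protein-like surface protein, stood at 53.8, 53.9 and 54.1 TPM in wild type and at 38.1, 42.5 and 38.0 TPM in spo (log2 difference -0.44, SE 0.04, adjusted p = 0.000142). futsch, a microtubule-associated protein of axons, went from 3.56 ± 0.06 to 2.89 ± 0.10 TPM, a log2 difference of -0.23 (SE 0.06, limma adjusted p = 0.0133).

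Neuronal genes were also compared with relatives, as a ratio within each library, which does not depend on library scaling. Many cell types use these relatives, except for Rbp9, itself a neuronal gene. nSyb amounted to 2.60%, 2.39% and 2.60% of the level of Syb, the general synaptobrevin, in wild type and to 0.664%, 1.10% and 0.840% in spo. Syb itself averaged 339 ± 5.33 and 339.5 ± 12.8 TPM, so the ratio moved with nSyb (log2 ratio difference -1.57). nrv3 amounted to 1.91% ± 0.10 of nrv2, the glial and epithelial beta subunit, in wild type and to 0.923% ± 0.182 in spo (-1.06), while nrv2 averaged 359.6 ± 8.93 and 354 ± 16.2 TPM.

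Rbp9, the remaining ELAV family member, which is also used in the germ line, averaged 4.19 ± 0.20 and 4.25 ± 0.25 TPM (adjusted p = 0.837). Against it, elav had a log2 ratio difference of -0.41 and fne of -1.64. comt stood the other way, at 25.4% ± 0.70 and 29.8% ± 0.21 of Nsf2 (0.23), and Nsf2 fell from 64.0 ± 0.63 to 56.7 ± 1.36 TPM (adjusted p = 0.000962). Snap25 amounted to 1.51% ± 0.07 and 1.26% ± 0.29 of Snap24, with overlapping libraries, and Snap24 rose from 84.7 ± 2.39 to 111 ± 4.25 TPM (adjusted p = 7.33e-05). In 5 of the 6 pairs the ratios of the groups did not overlap, lower in spo for nSyb, nrv3, elav and fne and higher for comt. The elav and fne pairs share Rbp9. Among levels of single features, 24.3% lay lower and 28.7% higher without overlap. The share among ratios to these relatives was not computed. The exact two-sided permutation test gave 0.1 for each of these 5, the smallest p that 3 against 3 libraries allow (0.12 adjusted over the 6 pairs), and 0.4 for Snap25.

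**Figure D3:**
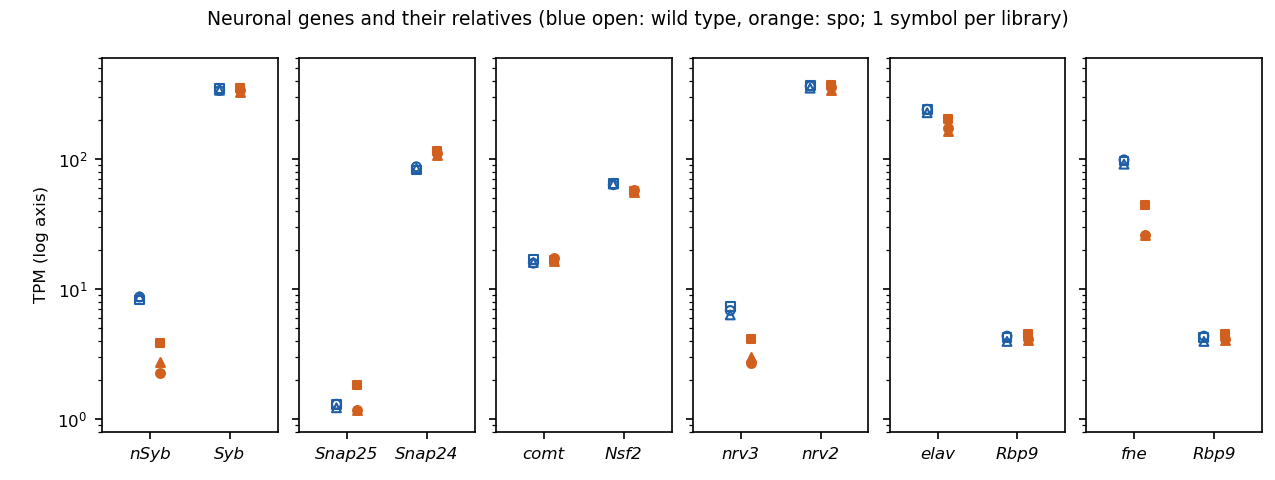
TPM on a log axis of 6 pairs of a neuronal gene and a relative, with 1 symbol per library. The relative is more broadly used, except for Rbp9, itself a neuronal gene. Circle, square and triangle mark replicates 1, 2 and 3, with blue open for wild type and orange filled for spo. nSyb and nrv3 are lower in spo while Syb and nrv2 overlap between genotypes, and Snap24 is higher in spo.

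The 32 genes did not keep their proportions to elav. Relative to the elav level of the same library, 15 of the other 31 genes were lower in every mutant library than in every wild-type library, 10 were higher and 6 overlapped. Over the other 15134 features, 7.47% were lower and 53.1% higher by the same measure, since elav itself fell and a gene with a steady level rises against it. VAChT went from 3.80% ± 0.16 to 2.02% ± 0.06 of elav and Rab3 from 4.34% ± 0.12 to 2.57% ± 0.02. unc-13 went from 9.07% ± 0.24 to 16.4% ± 1.56 and Syx1A from 31.4% ± 0.67 to 44.3% ± 3.37. Appl, at 22.9% ± 0.85 and 22.0% ± 1.04 of elav, overlapped. These ratios are a description and were chosen after the levels had been seen.

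The level of the lower genes varied among the mutant libraries, with spo replicate 2 nearest to wild type. Of the 18 genes called lower in the filtered fit, 15 were highest in spo replicate 2 among the mutant libraries, and all 11 that fell by at least 0.5 were. The 11 include Syt1, VGlut and cac, which entered that fit through the wild-type libraries alone. Over all features called lower, 52% were highest in that library. Over those called lower by at least 0.5 the share was 71.5%, and over all tested features 45%. For the 11 genes, spo replicate 2 stood at a median of 1.47 times the mean of the other mutant libraries, against 1.14 for all features called lower by that amount. This ratio ranged from 1.02 for Shal to 2.01 for Syt1 among the 11. Of the maternal transcripts, the mutant libraries held 11.5, 16.1 and 11.5 TPM of bcd and 15.4, 19.1 and 16.4 TPM of swa, in the order of their numbers. Every maternal transcript of the list was highest in spo replicate 2 among the mutant libraries. For the 7 that were higher in spo, this library thus lay farthest from wild type. Why spo replicate 2 differed from the other mutant libraries was not tested.

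**Figure D4:**
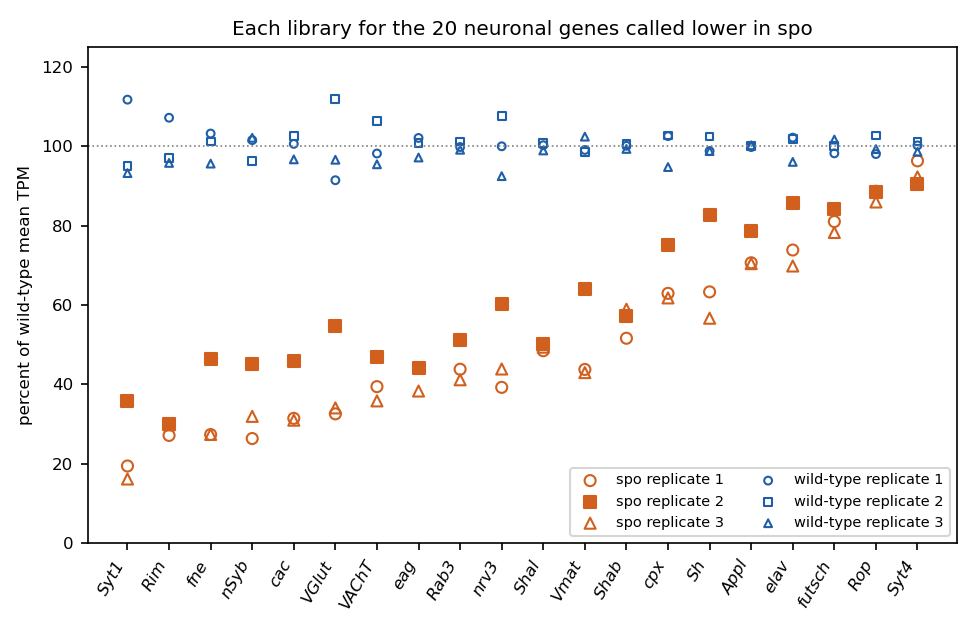
Level of the 20 genes called lower in the fit of all features, in each library as a percentage of the wild-type mean TPM. Orange symbols are mutant libraries, with replicate 2 filled, and blue symbols are wild-type libraries. Genes are ordered by fold, from Syt1 to Syt4, and replicate 2 is the highest mutant library for fne, nSyb, cac, VGlut, Vmat and nrv3 but not for Shab or Syt4.

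Genomic spans were long at the median, though not for every gene: Rop spans 2638 bp and comt 3468 bp. The median span was 29.7 kb for the 32 genes, against 2.58 kb for the 9897 tested features with an annotated position, and the median exon length 7.66 kb against 1.98 kb. The X chromosome holds 9 of the 32 (28.1%), against 16.3% of the tested features. The genes called lower in the filtered fit had a median span of 19.4 kb and the other members 37.2 kb. The other members include Rim and eag, which were lower in the fit of all features. Whether span bears on the differences was not tested.

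Further neuronal genes outside the 32, written down by process, showed a more mixed picture. Of 109 such genes, 40 (36.7%) were lower and 21 (19.3%) higher in the fit of all features, against the 19.9% and 23.4% of all features, with a median difference of -0.04. Not all are confined to neurons: the list holds nrv2, Tdc1 and the GluRII receptor genes of muscle. It also shares pros, nerfin-1 and nrv2 with the neuroblast and glial marker lists. Without the genes of those marker lists, 39 of 106 were lower and 20 higher. Among 28 receptor genes 13 were lower and 4 higher, among 20 vesicle genes 8 and 3, among 16 transmitter genes 6 and 2 and among 15 surface and cytoskeleton genes 7 and 1. Among 25 channel and pump genes 3 were lower and 10 higher, the reverse of the channels in the list of 32. Of the 10, Hk, Task6 and Irk2 stayed under the filter, and Irk2 rests on 0 to 9 reads per library. In the filtered fit 3 of 17 were lower and 8 higher. The 25 include the voltage-gated channels NaCP60E, higher at 17.99 ± 0.26 against 15.1 ± 0.17 TPM, and Ca-alpha1D, at 16.4 TPM in both genotypes. These voltage-gated channels were picked after their values were seen. Among 5 RNA-binding genes and factors 3 were lower and 1 higher.

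Those with the smallest p in the filtered fit, 4 in each direction, came from several roles. nAChRalpha1, an acetylcholine receptor subunit, went from 3.10 ± 0.20 to 0.588 ± 0.117 TPM (log2 difference -1.37, limma adjusted p = 1.9e-05). nwk, an endocytosis adaptor of nerve terminals, went from 10.3 ± 0.42 to 4.34 ± 0.49 TPM, the neuronal factor onecut from 56.4 ± 1.24 to 43.0 ± 1.42 TPM, and prt (portabella, a vesicular transporter) from 1.15 ± 0.04 to 0.173 ± 0.016 TPM. nAChRalpha1 and prt entered the filtered fit through the wild-type libraries alone. Conversely, the receptor subunit nAChRbeta2 was higher in spo, at 22.6 ± 0.84 against 12.8 ± 0.41 TPM, and so was nAChRalpha4, at 12.7 ± 0.89 against 6.67 ± 0.26 TPM. The non-neuronal tyrosine decarboxylase Tdc1 rose from 0.773 ± 0.159 to 2.51 ± 0.25 TPM, and the potassium channel Irk1 from 4.95 ± 0.09 to 6.73 ± 0.31 TPM. In the annotation used here, Irk1 shares 61.0% of its exon bases with the protein-coding gene CG46310 on the same strand. Reads of those bases may not be told apart. Acetylcholine receptor subunits thus moved in both directions.

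**Figure D5:**
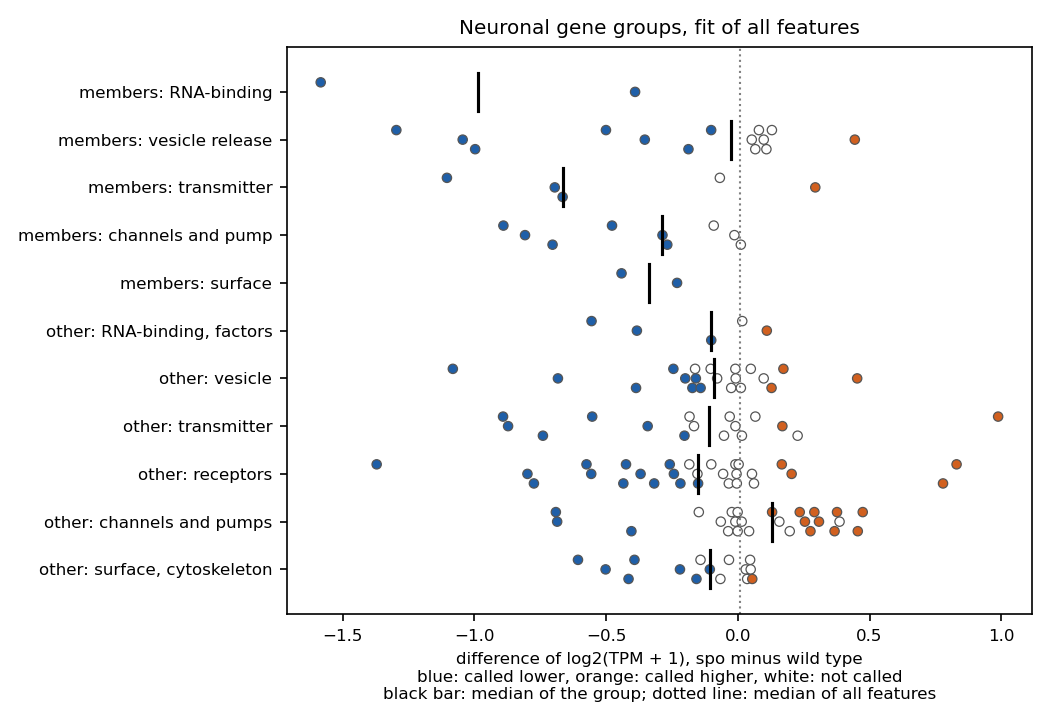
Difference of log2(TPM + 1), spo minus wild type, for each of the 32 genes and the 109 further neuronal genes by role, from the fit of all features. Each point is a gene (blue called lower, orange called higher, white not called), black bars are group medians and the dotted line is the median of all features. Medians of the member groups lie at or left of that line, and the further channels and pumps have their median to its right.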

How the data were processed

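Polyadenylated RNA of whole embryos was sequenced in 3 wild-type and 3 spo mutant libraries. The authors deposited TPM per gene in 1 table. A second deposited table holds, per the file headers, a log2 fold change, mean log2 CPM, a likelihood ratio score, a p-value and a false discovery rate. The tools in the submitters' processing notes are STAR 2.5.3a, FastQC 0.11.2, Subread with featureCounts, and edgeR, with dm6 as the build. Neither the annotation release nor the strand setting is given in the sources used here. Because TPM has a set sum, a rise of some transcripts lowers all others.

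Genotype was the only term of a limma fit (3.58.1, R 4.3.3, variance trend on mean level) of log2(TPM + 1), made once for features reaching 1 TPM in 3 or more libraries (10019) and once for all 15135. Benjamini-Hochberg adjustment ran over all features fitted, with a threshold of 0.05. The step was tested on simulated data. Differences are spo minus wild type and understate the change of low genes. Folds are ratios of mean TPM. Reads were rebuilt from TPM and exon length. The annotated length gave whole reads, to a tolerance of 0.0001, for 14160 features (94.6% of those that had one). For 973 a length was searched for that makes the reads whole, and 2 stayed not whole. Depth intervals would cover counting error only and are not given. Positions and exon overlaps are from Ensembl's BDGP6 annotation (dm6 coordinates).

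Every gene of the list may be named. Of the further neuronal genes, up to 4 per direction with the smallest p are named by rule. Others are named as relatives or overlapping genes, to state the limits of a count, or after their values were seen. Their list was written from general knowledge: 13 spellings were matched through older symbols and 4 had no match or repeated another spelling, and stnA and stnB, with equal values, count as 1. Genes, lists and tests were chosen with earlier results of these data known. Same-numbered libraries had correlations of -0.0275, 0.0450 and 0.129 in their deviations from the group means, so replicate numbers were not taken as pairs. Alternatives tried were a pseudocount of 0.1, other filters, median-of-ratios scaling, voom on rebuilt reads, the replicate block, a minimum difference of 0.5 and leaving out each library.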

Additional observations from a re-analysis of the deposited data

How the results depend on the processing

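Over 388 refits of the 32 genes, 362 kept both direction and side of the threshold. Of the rest, 18 lost a call, all of Syt4, Csp or Sh, and 4 gained one in the same direction. The 4 that turned direction were not called with all libraries, and of these only Syn was called after the turn (adjusted p = 0.0242): Snap25 (-0.062), Syn (-0.224) and para (-0.002) without spo replicate 2, and slo (0.016) without wild-type replicate 3. With 1 library left out, their log2 differences reached 0.132 for Snap25, 0.286 for Syn, 0.029 for para and -0.040 for slo at the other end. The cause was not tested. The filtered count of 18 lower genes became 11 with a filter of 5 TPM, which tests 15 of the 32, and 11 with a minimum log2 difference of 0.5. The 3 higher genes became 0 with that minimum. Leaving out 1 library gave 16 to 18 lower and 2 or 3 higher genes. Replicate numbers were not taken to pair libraries. With the replicate block, 16 fell (Sh and Syt4 lost their calls) and 4 rose (Syx1A gained one, 0.10, adjusted p = 0.0396). With voom, Csp lost its call and brp gained a call (0.15, adjusted p = 0.0126). A filter on mean TPM over all libraries, chosen after seeing the data, gave 17 lower and 3 higher. para, slo and Rdl rest on 7 to 92 reads per library. With voom, which adds no pseudocount of 1 TPM, para (adjusted p = 0.866) and slo (0.659) were not called either.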

Other observations

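The 5 GluRII genes, which encode the glutamate receptor subunits that fly muscle places opposite motor nerve endings, were all called lower in the filtered fit (limma, adjusted p of at most 0.00210), a group named after its values were seen. Mean levels in wild type and spo were 2.59 ± 0.13 and 1.07 ± 0.13 TPM for GluRIIC, and 5.63 ± 0.18 and 3.46 ± 0.17 TPM for GluRIIB. GluRIIA and GluRIIE reached 1 TPM in the wild-type libraries alone. GluRIIC, at 1.03, 0.955 and 1.21 TPM in spo, would not have entered on its mutant libraries by themselves either. Without these 5 genes, 35 of the remaining 104 further neuronal genes were lower and 21 higher in the fit of all features.

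A channel gene outside the 32, CngA, which encodes a subunit of a cyclic nucleotide-gated channel, was also high in spo replicate 2 alone. In the order of the replicate numbers it had 0.0216, 1.92 and 0.0149 TPM in spo and 0.0748, 0.168 and 0.0813 TPM in wild type. This gene was chosen after its values were seen. Rdl, Syn and Snap25 had the same order of libraries, with spo replicate 2 above every wild-type library and the other mutant libraries below. Some other further genes, such as Rbp, Sap47 and nrv1, had this order too.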
